A study of Homo sapiens with 6 samples.

Results

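The RNA exosome is the main machine that degrades and trims RNA from its 3′ end. The sgRNAs described here are those against its subunits and its best known cofactors in a genome-wide CRISPRi screen for opioid receptor abundance. They were chosen by name from a fixed set of 17 genes (EXOSC1 to EXOSC10, DIS3, SKIV2L, SKIV2L2, TTC37, MPHOSPH6, C1D and ZCCHC7). The files hold 170 sgRNA rows with these names among 209070 rows. Of the 170, 85 had reads and were analysed, 5 for each of the 17 genes at 1 start site, and the other 85 were at 0 in every library. In all, 18905 genes and 101317 sgRNAs against genes were analysed.

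The screen used HEK293 FLP In cells, a human embryonic kidney line, which stably expressed SSF-DORmct-APEX2, a FLAG-tagged delta opioid receptor carrying the recycling sequence of the mu opioid receptor and the peroxidase APEX2. All cells also carried dCas9-KRAB-BFP, a Cas9 that cannot cut and that carries a repressor, which shuts down the promoter where an sgRNA places it, in a clonal population picked for efficient knockdown. Per the labels, cells were transduced with the sgRNAs at a multiplicity of infection of 0.2. Selection with 0.75 μg/ml puromycin began 2 days later and lasted 3 days. Cells were grown for 8 days after transduction and then received 10 μM DADLE, an opioid peptide, for 90 min, while the methods of the study give other durations. The labels give 100 μM Amplex UltraRed and 50 μM hydrogen peroxide for the peroxidase reaction. The fluorescent product of APEX2 and Amplex UltraRed was used to sort the top quartile of fluorescence and the bottom quartile, separately in H17, H23 and H456, the 3 sublibraries of sgRNAs. Each of these 6 groups was 1 library with no replicate.

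In the exosome, 6 ring subunits and 3 cap subunits form a barrel that has lost its own catalytic activity in humans, and RNA is threaded through it to the nuclease DIS3. EXOSC10 is a further nuclease of the nuclear form, which trims the 3′ ends of ribosomal RNA and destroys spacer fragments of ribosomal precursors and short-lived noncoding transcripts. The helicase MTR4, named SKIV2L2 in the files, feeds RNA to the nuclear exosome, whereas the SKI complex of SKIV2L and TTC37 serves the cytoplasmic exosome in the turnover of messenger RNA and of messages with stalled ribosomes.

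The upstream sequences of the 4 members with a promoter entry whose sgRNAs all lay on one side of 0 are shown, because CRISPRi acts near a start site and because all 5 sgRNAs against EXOSC2, EXOSC5 and EXOSC10 were negative while all 5 against ZCCHC7 were positive. The sgRNAs were not placed on this sequence. EXOSC1, whose sgRNAs were also all negative, has no entry. Each sequence is the 250 bases before the RefSeq start, 5′ to 3′ on the strand of the gene in GRCh38.p14, and capitals mark GC boxes (GGGCGG) and CCAAT boxes (CCAAT) on either strand. The positions are chr9:130693510-130693759 (plus strand) for EXOSC2, chr19:41397360-41397609 (minus strand) for EXOSC5, chr1:11099870-11100119 (minus strand) for EXOSC10 and chr9:37120222-37120471 (plus strand, the more upstream of its starts) for ZCCHC7.
EXOSC2: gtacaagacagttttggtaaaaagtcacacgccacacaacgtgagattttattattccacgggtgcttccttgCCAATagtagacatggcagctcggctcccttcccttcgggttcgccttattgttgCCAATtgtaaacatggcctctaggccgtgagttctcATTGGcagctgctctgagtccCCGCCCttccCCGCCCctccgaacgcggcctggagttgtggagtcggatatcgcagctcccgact
EXOSC5: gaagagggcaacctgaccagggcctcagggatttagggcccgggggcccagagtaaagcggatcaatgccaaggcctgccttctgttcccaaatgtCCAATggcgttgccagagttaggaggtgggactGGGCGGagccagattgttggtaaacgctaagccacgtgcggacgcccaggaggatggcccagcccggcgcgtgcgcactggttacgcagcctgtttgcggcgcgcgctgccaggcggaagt
EXOSC10: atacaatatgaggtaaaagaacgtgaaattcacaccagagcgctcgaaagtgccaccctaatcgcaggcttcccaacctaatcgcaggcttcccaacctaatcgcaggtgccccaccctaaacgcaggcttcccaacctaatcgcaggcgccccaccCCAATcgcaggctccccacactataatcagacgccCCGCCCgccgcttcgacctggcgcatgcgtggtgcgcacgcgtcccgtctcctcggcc
ZCCHC7: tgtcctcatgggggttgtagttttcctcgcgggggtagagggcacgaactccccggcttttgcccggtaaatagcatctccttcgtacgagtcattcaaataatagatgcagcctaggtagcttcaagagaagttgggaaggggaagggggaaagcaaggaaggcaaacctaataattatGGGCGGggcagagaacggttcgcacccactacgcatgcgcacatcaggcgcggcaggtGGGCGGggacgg
A GC box was found in all 4 windows, and 42.6% of 35116 such windows in the RefSeq table hold one. EXOSC2 held 3 CCAAT boxes, EXOSC5 and EXOSC10 held 1 each and ZCCHC7 held 0, and 32.0% of all windows hold one. Neither TATAAA, found in 10.7% of all windows, nor CCGGAAG, a motif of ETS factors, found in 8.52%, occurred in the 4 windows on either strand. Shorter ETS motifs were not counted. A match here is a run of letters only, and binding was not measured. Of the 17 members, 15 had an entry in the promoter table.

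For each sgRNA, the phenotype was a log2 ratio, its read share in the top quartile divided by that in the bottom quartile, with the median of the sublibrary's nontargeting control (NTC) sgRNAs set to 0. A negative phenotype therefore means more reads in the bottom quartile than NTC sgRNAs had, that is, a lower receptor signal after agonist. Of the members, 13 were in H456 and 4 (DIS3, MPHOSPH6, C1D and ZCCHC7) in H23. The top and bottom libraries held 29611047 and 50486627 reads for H456 and 47989659 and 40946430 reads for H23, and the median NTC sgRNA had 721 reads in the top and 1210 in the bottom library of H456, and 1312.5 in the top and 1121 in the bottom library of H23. The SD of the phenotype over NTC sgRNAs was 0.30 in H456 and 0.28 in H23. The member sgRNAs had between 75 and 3842 reads in a library, which gives a median counting SD of 0.0645 on the log2 scale. It covers counting error only, because PCR copies cannot be told from separate molecules where no molecular identifiers were used.

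All 11 subunits of the exosome had a negative gene phenotype (the mean over sgRNAs), from −0.38 for EXOSC2 to −0.00353 for EXOSC6, with a median of −0.22. EXOSC6 had 3 of 5 sgRNAs positive and its mean was near 0, and its sign turned (0.0418 with the median over sgRNAs and 0.0497 without its strongest sgRNA), which leaves 10 of 11 negative. With the 6 cofactors, 15 of 17 members were negative and the median was −0.19, whereas 49.6% of all 18905 genes were negative and the median over all genes was 0.00130. Of the genes of H456, 51.1% were negative (12 of the 13 members there), and of those of H23, 52.4% (3 of the 4 members there). The shifts were small. None of the 17 passed an adjusted p of 0.05 when its sgRNAs were set against the NTC sgRNAs of the same sublibrary (Mann-Whitney U test, exact and two-sided, Benjamini-Hochberg adjustment over all genes). Among all genes, 0.381% of all genes passed in the lower direction and 0.0952% in the higher direction. The lowest adjusted exact p among the members was 0.143, for EXOSC2. At an unadjusted exact p under 0.05, 6 members were lower (EXOSC1, EXOSC2, EXOSC4, EXOSC5, EXOSC7 and EXOSC10) and 0 were higher, and all 6 were subunits of H456. The same holds for 4.05% of all genes in the lower and 4.07% in the higher direction, and for 4.59% of the 6946 genes of H456 in the lower direction. In H23, 5.21% of genes and 0 of the 4 members were lower by this criterion. The 6 became 1 (EXOSC2) without the strongest sgRNA of each gene, and 2 (EXOSC2 and EXOSC5) with olfactory receptor sgRNAs in place of the NTC sgRNAs. The other criterion followed the methods of the study, with a score of phenotype and P, in a form set here, against pseudogenes made of NTC sgRNAs. By it, 0 members were hits, beside 0.809% of all genes that were lower hits and 0.227% that were higher hits. The score threshold was 9.58 in H456 and 6.06 in H23. In H456, 31 of 6946 genes were lower hits and 10 were higher hits. In H23, 103 of 6044 genes were lower hits and 33 were higher hits. EXOSC2, in H456, had a score of 7.03. The units of the test are sgRNAs within 1 sort, so that it says nothing on how far another culture would differ, and the members were picked with earlier results of these data known.

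Among the 85 single sgRNAs, 62 were negative and 23 positive, so that 72.9% were negative, against 48.9% of all sgRNAs against genes. The 5th percentile of the NTC sgRNAs was −0.45 in both sublibraries. Of the member sgRNAs, 13 lay below the 5th percentile of their NTC sgRNAs, as did 5.04% of all sgRNAs against genes, and 0 lay above the 95th percentile, as did 4.96%. By sublibrary, 11 of 65 member sgRNAs in H456 and 2 of 20 in H23 lay below it, beside 5.97% and 5.61% of all sgRNAs there. Of these 13, 11 were against exosome subunits (11 of 55) and 1 each against SKIV2L2 and C1D. The sgRNAs of a gene share their target, and many share sequence too: 15 pairs in 10 genes lay on the same strand less than 20 bases apart. These near neighbours still differed by a median of 0.13 and by up to 0.81, and 12 of the 15 pairs had the same sign.

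EXOSC2, EXOSC1 and EXOSC3 form the cap, which holds RNA-binding domains over the mouth of the barrel. All 3 were negative. The 5 sgRNAs against EXOSC2 had 1245, 546, 1341, 1089 and 443 reads in the top quartile, against 3078, 1177, 2592, 2950 and 837 reads in the bottom quartile in the same order. All 5 had a top to bottom ratio below that of the median NTC sgRNA. Their phenotypes were −0.54, −0.34, −0.18, −0.67 and −0.15. The mean of −0.38 ± 0.22 (exact Mann-Whitney p = 0.00122, adjusted p = 0.143, SD over 5 sgRNAs) was the lowest of the 17 members and stood at rank 126 from the lowest of the 6946 genes of H456. It corresponds to 0.770 times the NTC ratio of top to bottom reads.

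The sgRNAs against EXOSC3 were split. In EXOSC3, 4 sgRNAs lay at −0.59, −0.50, −0.24 and −0.11 and 1 at 0.14, with a mean of −0.26 ± 0.29 (SD over 5 sgRNAs, exact p = 0.0506). The strongest and the weakest of the 4 negative sgRNAs, at −0.59 and −0.11, lie only 3 bases apart on the minus strand. EXOSC1 was the more even gene, with phenotypes of −0.40, −0.27, −0.15, −0.13 and −0.02 and a mean of −0.19 ± 0.14 (SD over 5 sgRNAs, exact p = 0.0380). None of the sgRNAs against EXOSC1 was below the 5th percentile of the NTC sgRNAs, compared with 2 each for EXOSC2 and EXOSC3.

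The ring is made of EXOSC4 to EXOSC9, relatives of a bacterial phosphorolytic nuclease. The 6 genes spread from −0.30 to −0.00353, with 3 at an unadjusted exact p under 0.05. The sgRNAs against EXOSC4 had 1481, 1646, 466, 983 and 234 reads in the top quartile, against 3842, 2643, 834, 2377 and 519 reads in the bottom quartile. Their phenotypes were −0.61, 0.08, −0.07, −0.51 and −0.38, a mean of −0.30 ± 0.29 (SD over 5 sgRNAs, exact p = 0.0308). The 3 most negative sgRNAs of EXOSC4 lie within 48 bases of each other, and the other 2 lie 340 and 366 bases from the first of them. The sgRNAs at −0.61 and −0.51 lay below the 5th percentile of the NTC sgRNAs. The one at −0.38 did not, nor did those at −0.07 and 0.08.

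EXOSC5 had 550, 557, 1761, 1122 and 1253 reads in the top quartile, against 1364, 1405, 3075, 2217 and 2273 reads in the bottom quartile. All 5 phenotypes were negative (−0.54, −0.57, −0.04, −0.22 and −0.09), with the 2 strongest on the plus strand and the 3 others on the minus strand. The mean was −0.29 ± 0.25 (exact p = 0.0139, adjusted p = 0.412, SD over 5 sgRNAs). EXOSC7 had a mean of −0.25 ± 0.26 (SD over 5 sgRNAs, exact p = 0.0414), with 3 sgRNAs at −0.57, −0.36 and −0.35 and the others at −0.08 and 0.09.

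The other 3 ring genes rested on fewer sgRNAs or were near 0. In EXOSC9, 1 sgRNA with 461 reads in the top and 1639 in the bottom quartile had a phenotype of −1.06, the lowest of all 85, while another, on the opposite strand, had 0.39. The mean of EXOSC9 was −0.22 ± 0.53 (SD over 5 sgRNAs, exact p = 0.249), the widest spread of any member, and −0.02 without the −1.06 sgRNA. EXOSC8 had 3 sgRNAs at −0.36, −0.29 and −0.26 and 2 at 0.19 and 0.44, with a mean of −0.06 ± 0.35 (SD over 5 sgRNAs, exact p = 0.519). The one at 0.44 had the fewest reads of all member sgRNAs, 75 in the top and 94 in the bottom quartile, and its counting SD was 0.223. Without it, the mean of EXOSC8 was −0.18, and the median over all 5 sgRNAs was −0.26. EXOSC6 was at −0.00353 ± 0.20 (SD over 5 sgRNAs, exact p = 0.994), with 3 sgRNAs positive and 2 negative.

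Both nucleases of the nuclear exosome had a negative mean. EXOSC10 had the smallest spread of all members. Its sgRNAs had 566, 994, 516, 722 and 466 reads in the top quartile, against 1147, 1828, 1141, 1367 and 883 reads in the bottom quartile. The phenotypes of −0.25, −0.11, −0.38, −0.15 and −0.15 gave a mean of −0.21 ± 0.11 (exact p = 0.0171, adjusted p = 0.455, SD over 5 sgRNAs). None of the 5 was below the 5th percentile of the NTC sgRNAs, so that the gene's position rests on 5 small shifts of one sign. DIS3, the processive nuclease at the base of the barrel, was measured in H23 and had sgRNAs at −0.55, −0.21, −0.21, 0.02 and 0.03, with a mean of −0.18 ± 0.23 (SD over 5 sgRNAs, exact p = 0.128). Among all genes with 5 sgRNAs, all 5 were negative in 4.25% (4.2% in H456), and among the members this held for EXOSC1, EXOSC2, EXOSC5 and EXOSC10.

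The nuclear cofactors had both signs. MPHOSPH6, which ties MTR4 to the nuclear exosome, had 3 adjacent sgRNAs at −0.41, −0.41 and −0.33 and 2 at −0.04 and 0.06, a mean of −0.23 ± 0.22 (SD over 5 sgRNAs, exact p = 0.0528). C1D, the partner that stabilises EXOSC10, had sgRNAs from −0.64 to 0.26 and a mean of −0.19 ± 0.34 (SD over 5 sgRNAs, exact p = 0.189). SKIV2L2, the helicase MTR4, had 1 sgRNA at −0.50 and 4 between −0.08 and 0.10, and a mean of −0.12 ± 0.22 (SD over 5 sgRNAs, exact p = 0.280).

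ZCCHC7, the zinc-knuckle RNA-binding subunit of the TRAMP complex, which adds short adenosine tails to nuclear RNA, was one of the 2 members with a positive mean. Its sgRNAs had 1845, 1563, 1567, 1060 and 3165 reads in the top quartile, against 1442, 1252, 1287, 706 and 2371 reads in the bottom quartile. All 5 phenotypes were positive (0.11, 0.07, 0.04, 0.34 and 0.17), and all 5 lay inside the central range of the NTC sgRNAs. The mean was 0.15 ± 0.12 (exact p = 0.120, adjusted p = 0.745, SD over 5 sgRNAs). All 5 sgRNAs were positive in 4.92% of the genes with 5 sgRNAs (4.46% in H23).

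The cytoplasmic SKI complex had 2 genes among the members, with means on either side of 0. TTC37, its scaffold, had 4 sgRNAs between −0.18 and −0.00227 and 1 at 0.20, with a mean of −0.04 ± 0.16 (SD over 5 sgRNAs, exact p = 0.557). SKIV2L, its helicase, had a mean of 0.10 ± 0.27 (SD over 5 sgRNAs, exact p = 0.407), the other positive mean. The library lists 2 of these 5 sgRNAs under NELFE as well, a gene that starts 204 bases away on the opposite strand, and these lay at 0.42 and −0.27. The 3 that were listed for SKIV2L alone lay at 0.22, 0.17 and −0.06, with a mean of 0.11 ± 0.15 (SD over 3 sgRNAs, exact p = 0.365).

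The nuclear helicase was set against the cytoplasmic proteins within H456. The mean of SKIV2L2 less that of SKIV2L was −0.22 (−0.12 and 0.10, exact two-sided Mann-Whitney p = 0.222 over 5 and 5 sgRNAs, adjusted p = 0.444 over 2 pairs), and less that of TTC37 it was −0.08 (−0.12 and −0.04, exact p = 0.841, adjusted p = 0.841). The smallest exact p that 5 against 5 sgRNAs allow is 0.00794. Neither difference was larger than the spread among sgRNAs, which does not show that the genes act alike. The other 3 planned pairs (DIS3 and EXOSC10, DIS3 and DIS3L, EXOSC10 and C1D) lay in different sublibraries and were not tested.

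Several members share a promoter region with a gene on the opposite strand. Knockdown was not measured in these files, and whether a member's sgRNAs also silenced its neighbour was not tested. Within 1000 bases of a RefSeq start of a member, the table lists ZDHHC3 for EXOSC7, BCKDHA for EXOSC5, PIBF1 for DIS3, DHX29 for SKIV2L2, ARSK for TTC37 and NELFE for SKIV2L. Their phenotypes were 0.06 for ZDHHC3, 0.08 for BCKDHA, −0.13 for PIBF1, 0.07 for DHX29, 0.10 for ARSK and 0.05 for NELFE. Their exact p ran from 0.418 (DHX29) to 0.589 (ZDHHC3), and none was a hit. EXOSC7, EXOSC5, DIS3, SKIV2L2 and TTC37 each had a lower mean than the gene beside them, and SKIV2L had a higher one. These differences were not tested.

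The number of reads per sgRNA over both quartiles was a second readout that the selection by name did not use. Taken as a fold of the median NTC sgRNA of the sublibrary, the median sgRNA of a member ran from 0.577 for SKIV2L to 1.98 for EXOSC2, with a median of 1.08 over the members and 1.01 over all genes. Of all genes, 5% lay below 0.438 and 5% above 1.74. EXOSC2 was the 1 member outside this range. No library of unsorted cells or of the plasmid pool is among the samples, so that the share of each sgRNA at the start is unknown and a fold of 1 cannot be read as unaffected growth.

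Other genes of the pathway were taken from 3 lists. Of 14 nuclear adaptors and docking partners of MTR4, 8 were negative and 6 positive, with a median of −0.05, beside 49.6% negative among all genes. None passed an adjusted exact p of 0.05 or was a hit, and at an unadjusted exact p under 0.05, 3 were lower and 1 was higher, beside 4.05% lower and 4.07% higher among all genes. SRRT, which links the cap-binding complex to RNA decay, had a mean of −0.48 ± 0.36 (exact p = 0.00276, adjusted p = 0.219, SD over 5 sgRNAs), and NVL, an AAA ATPase that binds MTR4 in the making of the large ribosomal subunit, had −0.35 ± 0.30 (exact p = 0.00611, adjusted p = 0.317, SD over 5 sgRNAs). Each had all 5 sgRNAs negative. The others past an unadjusted 0.05 in this list were PABPN1 at −0.20 and ZCCHC8 at 0.23.

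The 6 cytoplasmic partners (DIS3L, DIS3L2, WDR61, HBS1L, PELO and ABCE1) had a median of −0.06. Of these, 4 were negative, beside 49.6% of all genes, and none passed an adjusted or an unadjusted exact p of 0.05. They ran from −0.44 for ABCE1 (exact p = 0.118) to 0.15 for WDR61 (exact p = 0.133). All 5 sgRNAs of WDR61 were positive, as in 4.92% of genes with 5 sgRNAs. Of 6 other genes of ribosomal RNA maturation and 5′ decay (LAS1L, NOL9, ISG20L2, ERI1, XRN1 and XRN2), 2 were negative and 4 positive, with a median of 0.03. The lowest was ISG20L2 at −0.53 ± 0.60 (SD over 5 sgRNAs, exact p = 0.0504). ABCE1 and ISG20L2 were measured in H17, where the SD over NTC sgRNAs was 0.47. XRN1, the cytoplasmic nuclease that degrades RNA from the opposite, 5′ end, was the 1 hit among the genes of the 3 lists and lay in the higher direction. Its score of 7.78 passed the H23 threshold of 6.06, whereas SRRT had a score of 8.17 and missed the H456 threshold of 9.58. By the same criterion, 0.227% of all genes were hits in the higher direction, and 33 of these 43 genes were among the 6044 of H23. The sgRNAs against XRN1 had 1427, 1309, 904, 1005 and 162 reads in the top quartile, against 1100, 999, 623, 583 and 62 reads in the bottom quartile of H23. The phenotypes were 0.13, 0.14, 0.29, 0.54 and 1.14, with the highest from the sgRNA of fewest reads, and the mean was 0.45 ± 0.42 (exact p = 0.00406, adjusted p = 0.264, SD over 5 sgRNAs).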

How the data were processed

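The deposited values are raw counts per sgRNA, not normalized. The authors amplified sgRNAs from genomic DNA with 27 PCR cycles, cropped reads to 38 bp and made 1 count per sgRNA of the CRISPRi v2 library with ScreenProcessing (version 0.1). For the sgRNA positions a genome build was not stated, so only distances are reported. The library names in the labels carry the letter of the opposite quartile. The sample titles were used.

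A gene was placed in the sublibrary where most of its sgRNAs had their reads. An sgRNA was analysed with at least 10% of its reads there and at least 50 reads in one library. For sgRNAs with a 0, both counts were raised by 1. Gene phenotypes are means over at least 2 sgRNAs of 1 start site, that of lower P. The exact Mann-Whitney test used midranks and doubled the smaller tail, and p-values were adjusted over 18905 genes. Neither edgeR nor DESeq2 can test 1 library against 1. Hits followed the methods of the study, with under 10% pseudogenes (5 NTC sgRNAs each) per sublibrary. The form of the score (phenotype over the SD of pseudogenes, times −log10 P) was set here. All 17 members were named. A planned check of the readout is not reported here. Of the lists, the genes past a call and at most 2 others by p were to be named, and PABPN1, ZCCHC8 and WDR61 were added after their values were seen. The members and lists were chosen with earlier results of these data known. Python 3.11.15, scipy 1.17.1 and edgeR 4.0.16 (TMM only) were used, and the procedure was tested on simulated data. Alternatives covered the read minimum, pseudocount, centring, gene value, start sites, comparison set and pseudogenes.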

Additional observations from a re-analysis of the deposited data

Results flagged for a closer look

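The 85 member sgRNAs had 1143 reads in the libraries of the sublibraries that do not hold their gene, beside 200846 reads in their own, or 0.566% of their reads. These reads entered no phenotype of the members. The number is a sum over all 85 sgRNAs and 4 libraries for each, and it sets no level for a single sgRNA. The same share over all analysed sgRNAs against genes was 1.79%, and among the members it ran from 0.309% for DIS3 to 0.832% for TTC37. Its source was not tested.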

How the results depend on the processing

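The number of members that passed an adjusted exact p of 0.05 was 0 under each of 10 alternatives, and the number of hits was 0 under 17 of 18; with 1 of 5 other draws of the pseudogenes (seed 5), 1 member, EXOSC2, was a hit. The 6 members lower at an unadjusted exact p under 0.05 became 1 (EXOSC2, exact p = 0.00912) without the strongest sgRNA of each gene, a setting that takes the value farthest from 0 out of every gene and leaves the NTC sgRNAs as they are. They became 2 (EXOSC2 and EXOSC5) when olfactory receptor sgRNAs took the place of the NTC sgRNAs; their SD in H456 was 0.37, against 0.30 for the NTC sgRNAs. Under the other settings this number was 6 or 7. The median phenotype of the members ran from −0.27 to −0.14, and 14 or 15 members were negative. EXOSC6 changed sign, to 0.0418 with the median over sgRNAs and to 0.0497 without its strongest sgRNA. These were the 2 changes of sign among 188 gene values. The count at an unadjusted p, the count of negative members and the value of SKIV2L without shared sgRNAs were chosen after seeing the data. No paired analysis was possible because each group holds 1 library and the labels give no replicate numbers. With 5 sgRNAs a gene and 1 library a quartile, shifts of the size seen here were not told apart from NTC sgRNAs after adjustment.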
